A study of Mus musculus with 101 samples.

Results

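The gene group comprised 10 genes of canonical Wnt signalling, namely Frat1, Frat2, Axin2, Nkd1, Nkd2, Lef1, Tcf7, Sp5, Ctnnb1 and Gsk3b, out of the 15423 genes in the table of normalized counts, and all 10 were in the table. The group was chosen on measured values, since Frat2 had been seen to be higher in F1 females at 2 mg/kg-day than in F1 vehicle females. That contrast is therefore given as a description for all 10 genes, with no test. The embryos carried the OG2 transgene, in which EGFP is expressed from the Pou5f1 promoter, and EGFP-positive germ cells were sorted from gonads at E13.5. F0 dams were given oil vehicle or benzo[a]pyrene (BaP) by mouth, at a daily dose of 0.033 or 0.2 mg/kg or of 2 mg/kg. Dosing ran from E6.5 to E11.5 for the F1 embryos and from E6.5 to E15.5 for the F2 and F3 embryos. The F2 and F3 generations came from matings of animals that were not littermates, within a dose group, so that only the F0 dams were dosed. Embryos descended from dosed F0 dams are called exposed here, in every generation.

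The table held 48 female and 53 male embryos from 56 dams. Vehicle groups had 5 female and 5 male embryos in F1, and 6 females and 6 males in both later generations. At 0.033, 0.2 and 2 mg/kg-day there were 2, 5 and 5 females and 2, 6 and 8 males in F1, and 3 embryos per sex and dose in F2. In F3 the same doses had 4, 2 and 4 females and 4, 4 and 3 males. Values are the authors' normalized counts, and the reads behind them were recovered for 99 embryos, which had from 5004382 to 87240533 reads. These are reads assigned to genes of the table, fewer than the mapped reads the study states, and whether a unit is a read or a read pair is not stated. At this depth Frat2 rested on few reads, with a median of 12.0 in females and 29.5 in males, and Frat1 on fewer, with medians of 7.0 and 9.0.

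Canonical Wnt signalling is controlled at the stability of beta-catenin, the product of Ctnnb1. Without a Wnt signal a complex built on Axin and Apc lets the kinase Gsk3b mark beta-catenin for degradation, and with a signal beta-catenin enters the nucleus and activates target genes together with Tcf and Lef proteins. Several targets, among them Axin2, Nkd1, Nkd2 and Notum, encode inhibitors of the pathway and are used as readouts of its activity, and in the fetal gonad Wnt signalling from somatic cells is known for its part in ovary development.

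Markers of germ cells were abundant in all embryos. The summed normalized count of 7 germ cell genes was 4016 ± 540.3 (SD, n = 48) in females and 4359 ± 770.4 (SD, n = 53) in males, with Dppa3 the most abundant. Within the lists of markers and pathway genes the most abundant gene is the 1 with the highest mean normalized count over both sexes, without regard to length. The female germ cell genes Stra8, Rec8 and Sycp3 summed to 1151 ± 852 in females and 208 ± 104.4 in males, with Sycp3 the most abundant. Of the male germ cell genes, Dnmt3l was not in the table, and Nanos2 and Piwil4 summed to 1.94 ± 0.901 in females and 4.73 ± 4.17 in males, with Piwil4 the more abundant in females.

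Markers of other gonadal cells were present at unequal levels. All 6 Sertoli cell genes were in the table, and their sum ranged from 11.6 to 113 in females (median 20.3) and from 32.8 to 1733 in males (median 460.2). In males Cst9 was the most abundant at 413 ± 277.4, against 0.139 ± 0.225 in females, where Sox9, Amh, Dhh and Hsd17b3 each had a median of 0 and nearly the whole sum came from Aard. The 5 somatic genes of both sexes, led by Wt1, summed to a median of 1.27 in females and 10.3 in males. Of the 5 pregranulosa genes Foxl2 was not in the table, and the sum of the others had a median of 49.1 in females and 133.7 in males, nearly all of it Gng13. Stroma and mesonephros genes (7 of 7, Dcn most abundant) had median sums of 1.87 in females and 1.92 in males. For endothelial genes (5 of 6, nearly all of the sum Pecam1, which is also known from fetal germ cells) these were 32.2 and 25.5, for macrophage genes (7 of 7, C1qb) 10.6 and 6.65, for fetal Leydig genes (5 of 5, Hsd3b1 in males) 3.37 and 5.12, and for erythroid genes (5 of 6, Hba-a2) 2.82 and 1.18. No listed gene in the table was at 0 in every embryo. The part of RNA from these cells in the results was not tested, and in sorted bulk samples fewer cells of a type and less RNA per cell cannot be told apart.

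Some libraries stood apart. The 11 deep libraries, all of F1 and from 6 dams, started at 21247642 reads, while no other library of any generation with recovered reads exceeded 12211582. The F3 male at 0.2 mg/kg-day replicate 2 had several sex-dependent genes shifted toward the female side and is called female-like below. It had Stra8 at 14.7, the highest of the 53 males, Porcn at 23.0 against a median of 1.96 in males, and Wnt3 at 6.47, the lowest male value. Its Axin2 was 4.31 and its Frat2 2.73. Only its Porcn lay inside the range of the vehicle females, while its Stra8, Wnt3, Axin2 and Frat2 lay between the ranges of the vehicle sexes. This embryo descended from dosed F0 dams and so was in no contrast between vehicle embryos. F1 vehicle male replicate 2, the deepest library, had a similar Stra8 of 14.1 and the highest Nkd1 of the vehicle males, 3.62, but Wnt3 at 33.3 and Porcn at 2.73, and it was in the vehicle contrast.

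Normalized counts per kilobase of exon (GENCODE M21) allow levels to be compared between genes. In vehicle females Ctnnb1 had the highest level at 25.2 per kilobase, followed by Tcf7 at 5.04, Gsk3b at 2.20, Nkd1 at 1.80, Axin2 at 1.25 and Lef1 at 1.12. The levels of Sp5, Frat2, Nkd2 and Frat1 in vehicle females were 0.827, 0.516, 0.446 and 0.391 per kilobase. In vehicle males Ctnnb1 at 23.2, Tcf7 at 4.38 and Gsk3b at 2.86 per kilobase were again highest. Frat2 came next in males at 2.04, ahead of Sp5 at 1.10 and Lef1 at 1.05, while Frat1, Axin2, Nkd1 and Nkd2 were at 0.509, 0.374, 0.348 and 0.275 per kilobase.

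The comparison of vehicle males with vehicle females asks which of these genes differ between the sexes without exposure. Frat2 was higher in males, and the feedback inhibitors Axin2 and Nkd1 were higher in females. The other 7 genes did not pass the test. This contrast includes the 5 F1 vehicle females that took part in the choice of the group, and it was therefore also made within each generation.

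Frat2, a protein that binds Gsk3b and keeps it from acting on beta-catenin, had normalized counts from 0.523 to 2.60 in the 17 vehicle females (median 1.02) and from 2.96 to 6.88 in the 17 vehicle males (median 4.21). All 17 males lay above all 17 females. Frat2 was 3.96-fold higher in males, with a log2 difference of 1.63 (SE 0.16, limma with Benjamini-Hochberg adjustment, adjusted p = 3.75e-16). Within generations the log2 difference was 1.82 in F1, 1.61 in F2 and 1.48 in F3. In litters with both sexes, the mean Frat2 of the males exceeded that of the females in 15 of 15 vehicle litters and 24 of 27 exposed litters. The exposed litters include those of the F1 females at 2 mg/kg-day, whose values chose Frat2. Among these is the litter of the female with 2.73 and her brother with 2.60.

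Axin2, the scaffold of the beta-catenin destruction complex that Wnt signalling itself induces, ranged from 4.55 to 9.43 in vehicle females (median 6.86) and from 1.04 to 4.25 in vehicle males (median 1.84). Here all 17 females lay above all 17 males. Its level was 3.33-fold higher in females, a log2 difference between males and females of -1.57 (SE 0.14, limma adjusted p = 4.07e-17), and it was -1.63, -1.71 and -1.40 in F1, F2 and F3. Nkd1, which restrains Wnt signalling through Dishevelled, ranged from 2.45 to 21.0 in vehicle females (median 6.61) and from 0.293 to 3.62 in vehicle males (median 1.33). The sexes overlapped in Nkd1, since 15 of 17 females lay above every male. It was 5.19-fold higher in females, with a log2 difference of -2.01 (SE 0.21, limma adjusted p = 2.21e-14), and the litter mean of the females exceeded that of their brothers in Axin2 and in Nkd1 in all 42 litters with both sexes.

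Thus 3 of 10 genes were called between the sexes, where 56.5% of the 13288 genes tested were called. The median absolute log2 difference was 0.31 over the 10 genes and 0.39 over all genes tested. Frat2 was among 2.21% of genes in which every vehicle male exceeded every vehicle female, and Axin2 among 2.24% with the opposite order. Without the deep F1 libraries, an alternative chosen after their depth was seen, the log2 differences of Frat2, Axin2 and Nkd1 were 1.60, -1.57 and -2.07.

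**Figure D1:**
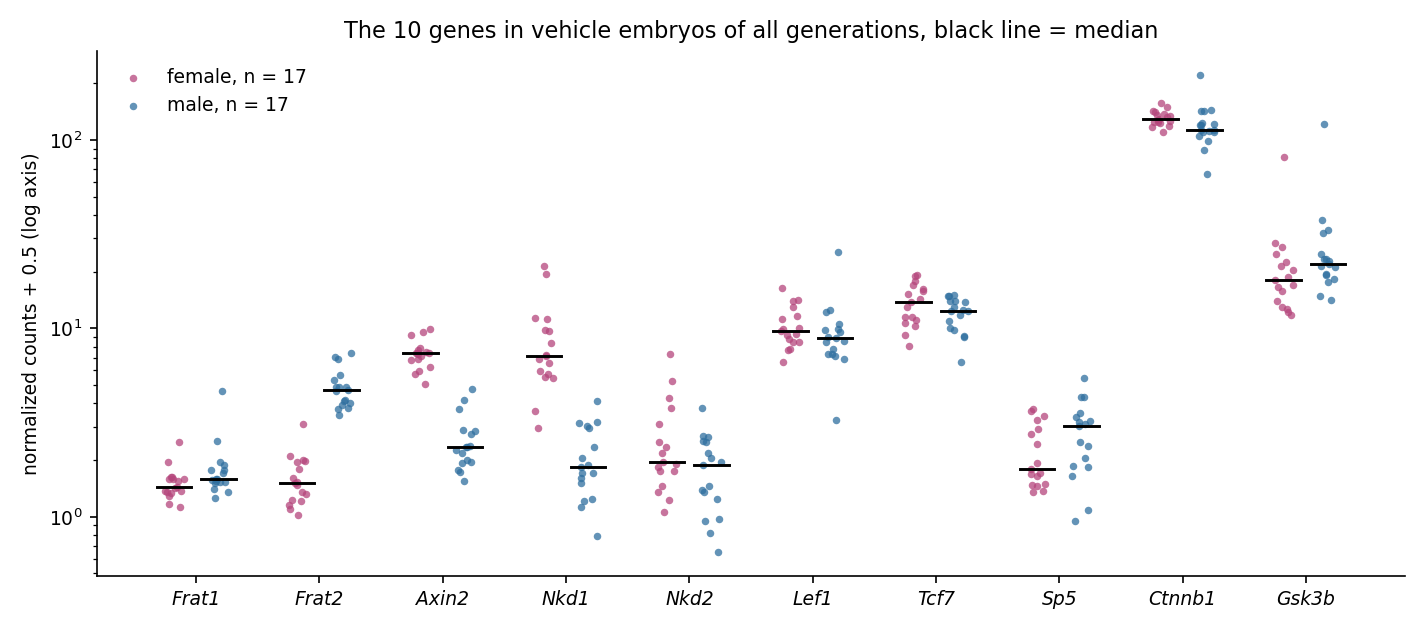
Normalized counts plus 0.5 of the 10 genes on a log axis, with 1 point for each of 17 vehicle females and 17 vehicle males and a black line at each median. The sexes do not overlap for Frat2 and Axin2, and overlap in a few embryos for Nkd1.

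Nkd2, the paralog of Nkd1, had a log2 difference between the sexes of -0.48 (SE 0.23) and missed the threshold (limma adjusted p = 0.0687). It passed with dams as a block (adjusted p = 0.0381), and likewise when any of 5 embryos was left out, with adjusted p-values of 0.0371 without F1 vehicle female replicate 5, 0.0434 without F2 vehicle female replicate 2, 0.0348 without F2 vehicle male replicate 5, 0.04996 without F3 vehicle male replicate 1 and 0.0474 without F3 vehicle female replicate 4. Its values ranged from 0.555 to 6.81 in vehicle females and from 0.152 to 3.29 in vehicle males, so that the sexes overlapped widely.

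Ctnnb1 ranged from 109.9 to 156 in vehicle females and from 65.8 to 222 in vehicle males. Its log2 difference was -0.16 (SE 0.08, limma adjusted p = 0.0922), and it passed the threshold with dams as a block (adjusted p = 0.0418) and without F3 vehicle male replicate 3, the highest male (-0.21, adjusted p = 0.0117). Lef1 and Tcf7, the DNA-binding partners of beta-catenin, had log2 differences of -0.17 and -0.18. Sp5, a transcription factor and direct Wnt target, had 0.29 with values from 0.858 to 3.22 in females and from 0.455 to 4.93 in males. Frat1, the paralog of Frat2, had a log2 difference of 0.22 and Gsk3b of 0.33, and the limma adjusted p-values of these 5 genes lay between 0.226 and 0.373.

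Frat1 and Frat2 each have a single exon on chromosome 19 of GRCm38, Frat1 at chr19:41829970-41832583 on the plus strand and Frat2 at chr19:41845972-41848132 on the minus strand. Their nearest coordinates differ by 13389. Of the other nearest genes in the table, Arhgap19 was higher in vehicle females (log2 difference -0.64, limma adjusted p = 4.75e-10), while Rrp12 (0.65, adjusted p = 5.50e-05) and Pgam1 (0.90, adjusted p = 6.42e-07) were higher in vehicle males. Their transcripts shared 30 different stretches of 75 bases, the length of a read, which were 1.18% of those in Frat1 and 1.44% of those in Frat2, so that reads of these genes could mostly be assigned to 1 of them. The levels of Frat1 and Frat2 had a Pearson r of 0.05 across the 48 females and 0.37 across the 53 males. The 6 deep male libraries had a median Frat1 of 3.47, against 1.06 in the 46 other males with recovered reads, across which the r was 0.13, and across the 42 such females it was -0.14.

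The 250 bases before the start of each gene are from RefSeq (GRCm38.p6), which had such windows for all 10 genes. They are shown for Frat1 and Frat2 because the paralogs, of which Frat2 alone was called between the sexes, have nearly the same bases next to the start. Capitals mark the words of at least 10 bases that both share within a stretch of 36 bases, of which 33 are identical. The sequences lie at chr19:41829720-41829969 on the plus strand and chr19:41848133-41848382 on the minus strand.
Frat1: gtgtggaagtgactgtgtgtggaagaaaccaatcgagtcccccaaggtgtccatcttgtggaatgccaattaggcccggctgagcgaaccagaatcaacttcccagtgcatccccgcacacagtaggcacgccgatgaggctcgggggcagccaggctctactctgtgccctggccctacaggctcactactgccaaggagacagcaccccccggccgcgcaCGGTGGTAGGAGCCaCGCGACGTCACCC
Frat2: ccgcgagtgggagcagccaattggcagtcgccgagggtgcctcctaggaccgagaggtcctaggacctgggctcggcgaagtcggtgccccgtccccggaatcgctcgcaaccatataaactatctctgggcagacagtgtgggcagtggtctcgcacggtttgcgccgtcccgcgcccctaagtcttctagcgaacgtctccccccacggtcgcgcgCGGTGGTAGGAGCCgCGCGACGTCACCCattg
The shared stretch ends at the start of Frat1 and 4 bases before the start of Frat2. It holds GACGTCA, which on either strand was in 2.78% of the 32851 windows of this length and in 4.34% of those of genes in the table, and of the 10 genes in these 2 only.

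A letter string bound by Tcf and Lef proteins, ATCAAAG, was searched on both strands in the same windows. It was in 1053 of 32851 windows (3.21%) and in 2.29% of those of genes in the table, and among the 10 genes in Sp5 only, where its reverse complement CTTTGAT (capitals) begins 104 bases before the start. Of the other Wnt pathway genes with a window it was in 3 of 46, Tnfrsf19, Wnt11 and Wnt5b. The Sp5 window is at chr2:70474673-70474922 on the plus strand and is shown because it held the only match.
Sp5: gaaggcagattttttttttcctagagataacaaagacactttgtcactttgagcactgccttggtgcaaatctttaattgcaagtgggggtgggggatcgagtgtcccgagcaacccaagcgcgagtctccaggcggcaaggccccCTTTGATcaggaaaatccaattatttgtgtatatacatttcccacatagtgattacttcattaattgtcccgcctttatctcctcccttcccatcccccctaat

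Other genes of the pathway were taken from lists by role. Of 94 listed genes, 73 were in the table and 63 were tested, and 33 were called between the vehicle sexes, 15 higher in males and 18 higher in females, where 56.5% of all genes tested were called. Their median absolute log2 difference was 0.44. edgeR called 35 with either its quasi-likelihood or its likelihood ratio test. These genes are given beside the Sertoli cell sum above, which was also higher in males, and its part in them was not tested.

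Of 10 genes tested for Wnt ligands and their release, 3 were higher in males and 5 in females. Wnt3, a canonical ligand, ranged from 17.4 to 38.6 in vehicle males (median 30.7) and from 1.92 to 4.84 in vehicle females (median 3.45), and its log2 difference was 2.98 (SE 0.13, limma adjusted p = 4.96e-38) with all males above all females. Porcn, the acyltransferase that Wnt proteins need for secretion, ranged from 10.2 to 53.6 in females (median 26.3) and from 1.09 to 3.96 in males (median 2.07), a log2 difference of -3.43 (SE 0.22, limma adjusted p = 8.92e-27) with all 17 females above all 17 males. The Wnt carrier Wls (1.70) and the ligand Wnt6 (2.20) were higher in males, and Rspo3 (-1.10), an amplifier of Wnt receptors, was higher in females, all as log2 differences. Among secreted antagonists, 3 of 8 were higher in males, namely Sfrp4, Wif1 and Sfrp1 with log2 differences of 3.19, 2.12 and 1.44. The other 2 of those called, both Wnt targets, were higher in females, and Notum, a Wnt deacylase, ranged from 2.49 to 6.32 in females and from 0.146 to 2.01 in males (log2 difference -1.75, SE 0.17, limma adjusted p = 1.27e-15). Sfrp2, the most abundant antagonist, was not called (0.47, limma adjusted p = 0.0863), though edgeR called it (quasi-likelihood adjusted p = 0.0453). It also passed in limma with dams as a block (0.45, limma adjusted p = 0.0458).

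Receptors and regulators of receptor turnover were called in 8 of 14, 3 higher in males and 5 in females. The Rspo receptor Lgr4 was higher in males (log2 difference 1.54), and the coreceptor Lrp6 (-0.83), the receptor kinase Ror2 (-0.94) and Fzd3 (-0.45) were higher in females. Fzd3 had the highest normalized count of the receptors in females, at 35.3 in vehicle females, and Lgr4 in males, at 33.5 against 25.8 for Fzd3 in vehicle males. The vehicle male mean of Lgr4 includes the deep library of F1 vehicle male replicate 1, at 159, against 19.8 to 22.7 in the other F1 vehicle males. This order was not tested without it. Per kilobase Fzd3 stood below Ryk in both sexes, at 2.75 against 4.74 in vehicle females and 2.02 against 4.16 in vehicle males, where Lgr4 was at 5.70. Of 15 cytoplasmic genes 4 were called, among them Dvl2, a Dishevelled protein, higher in males by 1.10. Tnks2, a regulator of Axin stability with the highest normalized count of these in females and over both sexes, though not in males, had a log2 difference of 0.04 (limma adjusted p = 0.741). Nuclear effectors were called in 3 of 9, with the corepressor Tle4 (0.27) higher in males and Ctnnbip1, which blocks the binding of beta-catenin to Tcf proteins, higher in females (-1.55). Of 7 further target genes 1 was higher in males and 4 in females, including Ccnd1, the G1 cyclin, with a median of 67.2 in vehicle females and 5.92 in vehicle males (-3.12), and the receptor Tnfrsf19 (-0.88). Tle4 was not called within any generation (limma adjusted p = 0.426, 0.160 and 0.0893 in F1, F2 and F3). In F1 alone Wls (0.84, limma adjusted p = 0.231), Lgr4 (1.32, 0.134), Ror2 (-0.72, 0.0577) and Tnfrsf19 (-0.74, 0.0605) were not called either.

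**Figure D2:**
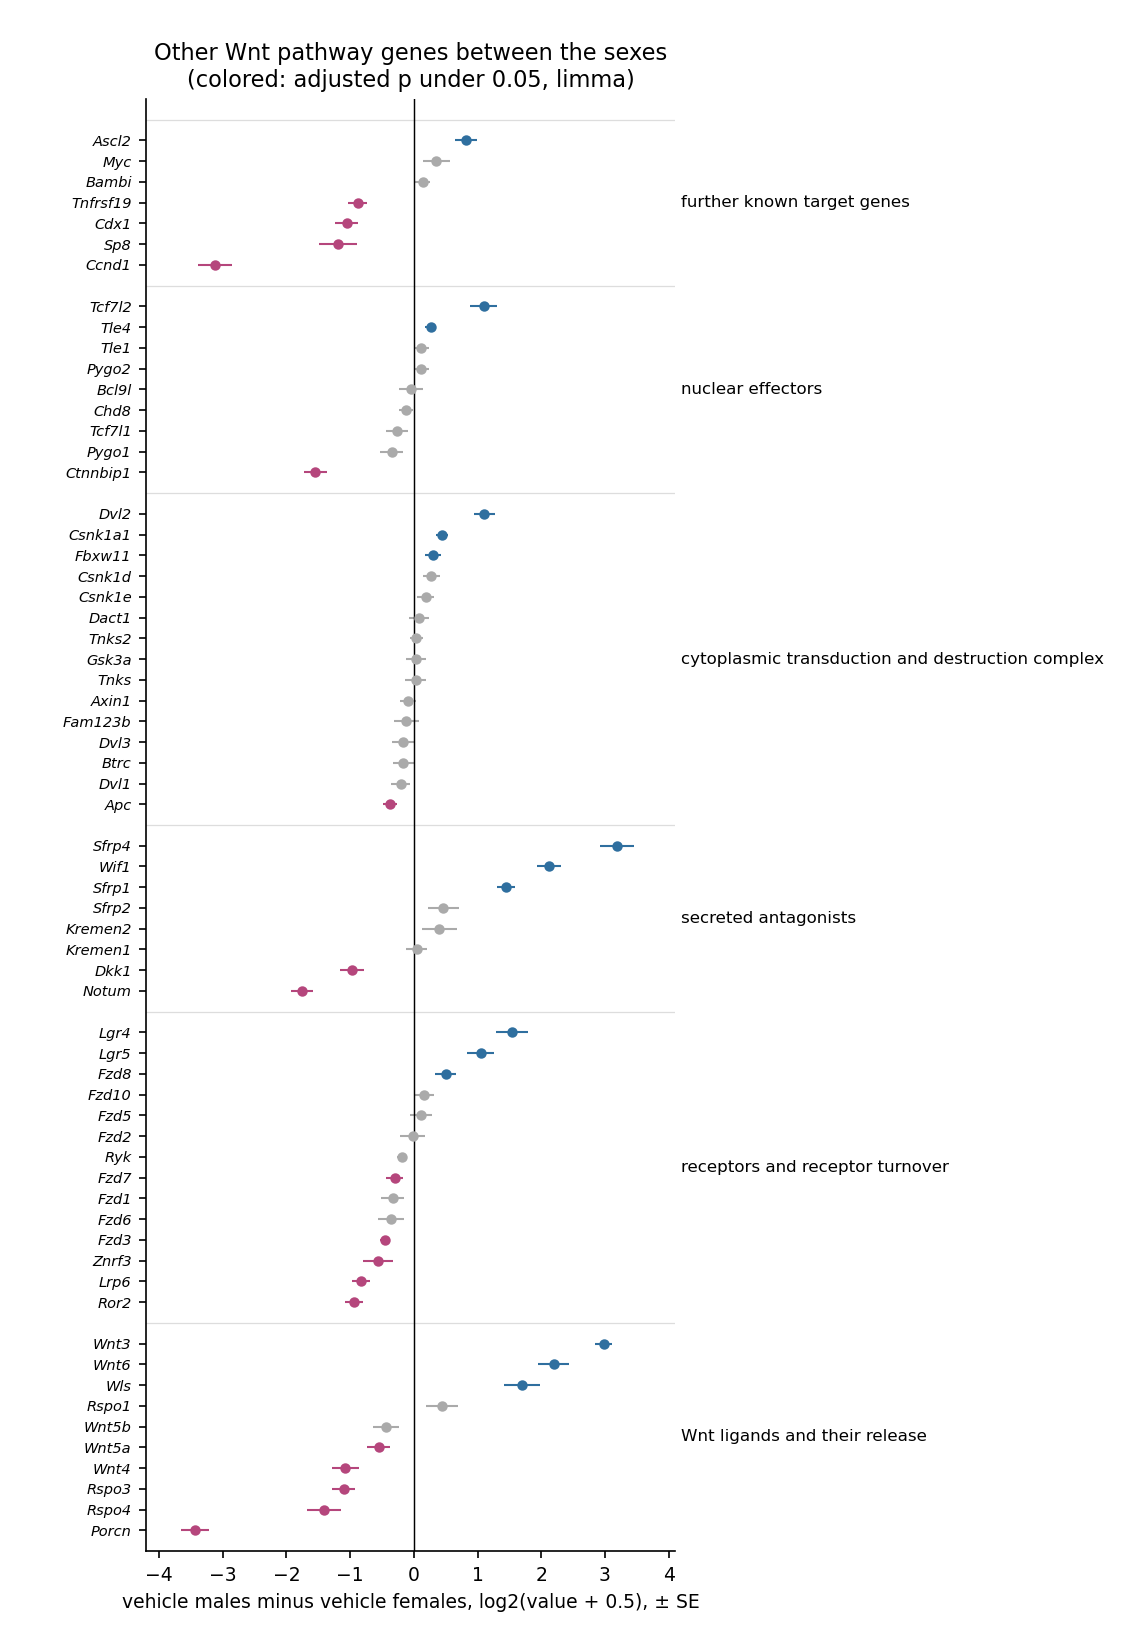
Log2 difference between 17 vehicle males and 17 vehicle females for 63 other Wnt pathway genes grouped by role, with points at the estimate and bars of 1 SE (blue higher in males, magenta higher in females, grey not called at an adjusted p of 0.05 in limma). Wnt3 and Sfrp4 lie near 3 toward males, and Porcn and Ccnd1 beyond -3 toward females.

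In F1 females at 2 mg/kg-day, the contrast that chose the group, Frat2 was 5.003, 2.79, 2.73, 4.28 and 2.86 in replicates 1 to 5. In F1 vehicle females it was 0.850, 1.30, 1.47, 0.719 and 0.972. The lowest exposed value, 2.73, lay above the highest vehicle value, 1.47, and the means were 3.53 ± 1.05 (SD, n = 5) and 1.06 ± 0.314 (SD, n = 5), a 3.33-fold difference. Such an order, with all 5 exposed above all 5 vehicle females, was found in 0.535% of 13635 genes. Without the 3 deep libraries of these groups the log2 difference was 1.23, against 1.35 with them. Nothing is read from this order, since it chose Frat2.

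The brothers of these females had Frat2 values on either side of theirs. Frat2 was 5.003 in a female whose brothers had 6.23 and 4.64, 2.79 beside 5.54, 2.73 beside 2.60, 4.28 beside 5.57 and 2.86 beside 3.70. Among the other genes, 4 of 5 exposed females lay below every vehicle female in Nkd1, with 2.88, 4.97, 4.40, 3.33 and 6.94 against 6.61, 7.88, 5.22, 6.74 and 5.41, and likewise 4 of 5 in Ctnnb1. The log2 difference of Ctnnb1 was -0.22, and -0.09 with upper quartile scaling, which moved the median of all genes by 0.12. Axin2, Nkd2, Lef1 and Tcf7 differed by 0.11, 0.12, 0.24 and -0.20 on the log2 scale, Frat1 by 0.28 and Sp5 by -0.41. Without the deep libraries Frat1 turned, to -0.092. The Sertoli cell sum, in females nearly all Aard, was between 17.6 and 113 in these exposed females, against 17.7 to 33.7 in the vehicle females. It was 69.3 and 113 in the deep exposed libraries, where Cst9 was 0.216 and 0.0507. The stroma and mesonephros sum was 8.96, 5.78, 3.34, 1.66 and 3.54 in exposed replicates 1 to 5, against 0.417 to 1.88 in the vehicle females. The erythroid sum was 1653 in replicate 4 and at most 6.26 in the other exposed females. Stra8, a marker of female germ cells entering meiosis, was 63.7, 152.6, 71.2, 112.5 and 333.8 in exposed replicates 1 to 5 and 742.6, 617.2, 112.4, 450.4 and 313.1 in the vehicle females. The exposed and the vehicle female with the least Stra8, replicates 1 and 3, had the highest Frat2 of their groups, 5.003 and 1.47. The part of these markers in the Frat2 values was not tested.

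Exposure was then tested for each dose against vehicle of the same sex and generation, except in the contrast that chose the group. None of the 10 genes was called by limma in any of the 17 comparisons, and 0 were called by either edgeR test. Of 170 tests, 17 had an unadjusted p under 0.05, where the share over all genes tested was 4.81%. These 17 include Frat2 in F1 females at 0.033 and 0.2 mg/kg-day, measured against the vehicle females whose values chose the group. Without the F1 female comparisons there were 13 of 150 tests (8.67%), where the share over all genes was 5.40%. Among all genes limma called 0% in 16 of these comparisons, and 0.145% of 13083 genes in F2 males at 0.2 mg/kg-day. edgeR's quasi-likelihood test called 5 genes in F3 males at 0.2 mg/kg-day, 3 in F2 males at this dose and 0 elsewhere. Its likelihood ratio test called 86 and 76 in these groups, 22 in F3 females at 0.033 mg/kg-day and at most 3 in any other comparison. With the doses combined, limma and edgeR called 0 of 50, with 6 at an unadjusted p under 0.05 in limma, where the share over all genes was 3.82%. For the difference between the sexes in the response in F2 and F3 they called 0 of 60, with 5 at an unadjusted p under 0.05 in limma, where the share over all genes was 3.51%. In limma and in edgeR's quasi-likelihood test, 0% of all genes tested were called in each of these as well. The likelihood ratio test called 9 of 13083 genes in F2 males with the doses combined, and at most 3 genes in any other of these comparisons.

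Frat2 in F1 females was also above vehicle at the lower doses, which share their vehicle females with the contrast that chose the group. At 0.033 mg/kg-day the values were 2.18 and 1.93, both above every vehicle female (log2 difference 0.73, SE 0.30, unadjusted p = 0.0209 and adjusted p = 1.0 in limma). This order was found in 1.46% of genes. At 0.2 mg/kg-day they were 2.12, 1.69, 1.13, 1.41 and 2.32, of which 3 lay above every vehicle female (0.51, SE 0.23, unadjusted p = 0.0315 and adjusted p = 1.0 in limma). In F1 males at 0.033 mg/kg-day Frat2 was 3.04 and 2.83, both below the 5 vehicle males, which ranged from 3.29 to 6.52 (log2 difference -0.66, SE 0.30, unadjusted p = 0.0350 and adjusted p = 0.769 in limma). Frat1 and Lef1 were below every vehicle male in the same embryos, an order found in 4.66% of genes, and the Sertoli cell sums of these embryos were 1733 and 917, against 70.6 to 794.7 in F1 vehicle males. The part of the Sertoli cell sum was not tested.

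In F2 females Frat2 was 2.07, 2.71 and 1.41 at 0.033 mg/kg-day (log2 difference 0.68, SE 0.31, unadjusted p = 0.0363 and adjusted p = 1.0 in limma), 1.23, 0.955 and 1.70 at 0.2, and 0.599, 1.65 and 1.52 at 2 mg/kg-day. Vehicle females ranged from 0.601 to 2.60, so that only 1 exposed F2 female, at 0.033 mg/kg-day, exceeded all of them. The erythroid sums of the F2 females at 0.033 mg/kg-day were 229, 586 and 618, against 0 to 223.3 in F2 vehicle females. This sum was also 370.2 in F2 female replicate 2 at 2 mg/kg-day and 347.5 in replicate 1 at 0.2 mg/kg-day, and its part was not tested. In F3 females Frat2 was 1.45, 0.740, 3.997 and 3.61 at 0.033 mg/kg-day, 1.98 and 3.45 at 0.2, and 2.08, 1.25, 0.801 and 4.23 at 2 mg/kg-day, against 0.523 to 1.593 in vehicle females. At each of these F3 doses 2 females lay above every vehicle female, and at 0.2 mg/kg-day these were all the females, an order found in 8.91% of genes. The F3 females with Frat2 at 4.23, 3.997, 3.61, 3.45 and 1.98 had Stra8 at 11.4, 9.12, 29.2, 35.7 and 40.7, all below the F3 vehicle females, which ranged from 62.9 to 620. In these 5 embryos Ccnd1 was 7.47, 10.99, 22.6, 27.6 and 19.9 and Pou5f1 138.6, 126, 107.9, 120.2 and 63.1, and in F3 vehicle females these ranged from 27.6 to 83.2 and from 33.4 to 88.6. The sixth F3 female above every vehicle female in Frat2, replicate 1 at 2 mg/kg-day with 2.08, lay inside the vehicle ranges of all these markers, with Stra8 at 308.6, Ccnd1 at 45.5 and Pou5f1 at 45.2. The F3 female with Frat2 at 4.23 had an erythroid sum of 1271 and a Sertoli cell sum of 65.7. In the female with 3.61 the stroma sum was 63.5. The highest F3 vehicle females had 2.03, 35.7 and 24.5 in these sums. Of these sums, the female with 3.45 exceeded them in none, and those with 3.997 and 1.98 only in the erythroid sum, at 4.25 and 2.64. Other sums were also above vehicle in part of the 5 embryos. In the same order, the somatic genes of both sexes summed to 3.81, 4.62, 19.3, 0.394 and 1.72, against at most 1.83 in F3 vehicle females. The macrophage sum was 7.47, 28.7, 34.6, 2.76 and 4.09, against at most 20.1. The endothelial sum was 31.7, 49.1, 47.9, 83.3 and 50.3, against at most 46.7. Among vehicle females, F2 replicate 6 and F3 replicate 4 had the least Stra8 of their groups, 93.0 and 62.9, and the highest Frat2, 2.60 and 1.593. The part of these markers in the levels of Frat2, and of the other genes in the same embryos, was not tested. With the doses combined, Frat2 was 2.36 ± 1.34 (SD, n = 10) in exposed and 1.09 ± 0.406 (SD, n = 6) in vehicle F3 females, a log2 difference of 0.77 (SE 0.27) that did not pass (unadjusted p = 0.00725 and adjusted p = 0.635 in limma).

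Ordered by mean, the 24 groups ran from F1 vehicle females at 1.06 to F1 vehicle males at 5.07. The 11 lowest groups were all female. The F1 females at 2 mg/kg-day, at 3.53, stood among the male groups between F2 males at 0.2 mg/kg-day (3.46) and F3 males at 0.2 mg/kg-day (3.61). Nothing is read from their place, since these values chose Frat2. Neighbours in this order differed by less than the root mean square of their SDs, with 1 exception. F2 females at 0.2 mg/kg-day (1.29) and F1 females at 0.2 mg/kg-day (1.74) had a gap of 0.444, just above their 0.437.

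**Figure D3:**
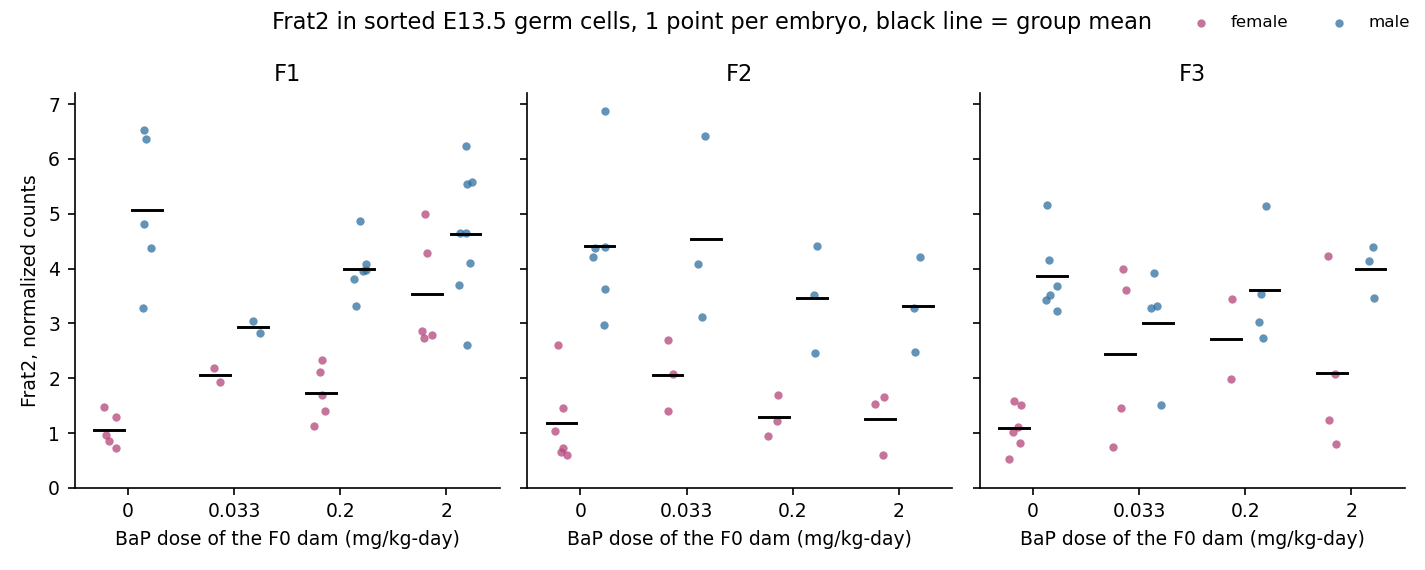
Normalized count of Frat2 by generation and F0 dose in mg/kg-day, with 1 point per embryo (magenta female, blue male) and a black line at each group mean. Vehicle males lie above vehicle females in each generation, and F1 females at 2 mg/kg-day, whose values chose Frat2, lie between 2.73 and 5.003.

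Nkd2 in F1 females was above vehicle at both lower doses. It was 3.47, 2.19, 3.84, 2.82 and 1.61 at 0.2 mg/kg-day and 2.18 and 3.52 at 0.033 mg/kg-day, against 0.555 to 1.403 in the vehicle females. All 5 and both exposed females lay above every vehicle female, an order found in 0.132% of genes at 0.2 and in 1.46% at 0.033 mg/kg-day. The log2 differences were 0.97 (SE 0.31, unadjusted p = 0.00371) and 1.01 (SE 0.41, unadjusted p = 0.0191), and both had an adjusted p of 1.0 in limma. At 2 mg/kg-day in the same generation Nkd2 was 1.32 ± 0.48 (SD, n = 5), beside 1.16 ± 0.345 (SD, n = 5) in vehicle. In F2 females at 0.2 mg/kg-day it was 3.43, 3.55 and 2.91, above the 6 vehicle females, whose highest was 2.62, an order found in 0.879% of genes, though the difference did not pass (log2 difference 0.94, SE 0.47, unadjusted p = 0.0549 and adjusted p = 1.0 in limma).

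In F3 females Nkd2 pointed the other way, at 1.49 ± 1.22 (SD, n = 10) with the doses combined and 3.56 ± 2.12 (SD, n = 6) in vehicle, a log2 difference of -1.17 (SE 0.35, unadjusted p = 0.00238 and adjusted p = 0.635 in limma). The F3 vehicle females themselves reached higher Nkd2, from 0.858 to 6.81, than those of F1 (0.555 to 1.403) and F2 (0.724 to 2.62). Nkd1 in F3 females at 2 mg/kg-day was 2.56, 3.43, 8.24 and 0.705, against 2.45 to 21.0 in vehicle females (log2 difference -1.68, SE 0.51, unadjusted p = 0.00241 and adjusted p = 0.243 in limma). The exposed and vehicle females overlapped, and only 1 exposed female was below every vehicle female. Nkd1 in vehicle females of F1 and F2 ranged only from 5.22 to 7.88 and from 3.13 to 9.16. Vehicle females of different generations were not compared by a test. Across the 48 females Nkd1 and Nkd2 had a Pearson r of 0.61, and across the 53 males -0.06, over embryos that differ in group and depth.

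Frat1 in F3 females at 2 mg/kg-day was 0.641, 0.467, 0.343 and 0.423, all below the 6 vehicle females, which ranged from 0.666 to 2.00. This order was found in 0.906% of genes, and the log2 difference was -0.73 (SE 0.25, unadjusted p = 0.00633 and adjusted p = 0.243 in limma). The exposed values rested on 4, 3, 3 and 3 reads, and the lowest vehicle value, 0.666, on 6 reads. Lef1 in F3 females at 0.2 mg/kg-day was 14.8 and 20.3, both above the vehicle range of 8.01 to 13.4 (0.72, SE 0.33, adjusted p = 0.370 in limma), an order found in 8.91% of genes, and in F3 males at this dose its log2 difference was 0.78 (SE 0.26, adjusted p = 0.249 in limma). Sp5 at 0.2 mg/kg-day in F3 had log2 differences of -1.004 in females and -0.85 in males, with limma adjusted p-values of 0.376 and 0.404. The female-like replicate 2 was among the males and had the highest Lef1 of the group, 15.4 against 13.96, 7.31 and 15.0, and the lowest Sp5, 0.575 against 1.68, 1.26 and 1.52. Axin2, Tcf7, Ctnnb1 and Gsk3b reached an unadjusted p under 0.05 in no dose comparison in limma.

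The other Wnt pathway genes were not called by limma in any dose comparison either, with 61 of 1093 tests (5.58%) at an unadjusted p under 0.05, where the share over all genes was 4.81%, and 0 by edgeR's quasi-likelihood test. The comparisons differed, with 15 of 64 pathway genes (23.4%) in F2 males at 0.2 mg/kg-day, where the share over all genes was 9.58%, 10 of 64 (15.6%) in F3 males at this dose, where it was 10.6%, and 0 in several others. The likelihood ratio test called Porcn in F3 males and Rspo4 in F2 males, both at 0.2 mg/kg-day, where it called 86 of 13137 genes (0.655%) and 76 of 13083 (0.581%). The F3 males at this dose include the female-like replicate 2, with Porcn at 23.0 against 5.22, 1.26 and 4.29 in replicates 1, 3 and 4, Sfrp4 at 0.144 against 2.86, 2.40 and 1.24, and Wif1 at 0.862 against 1.01, 2.02 and 0.667. Leaving out 1 embryo gave limma calls in the same groups. In F2 males at 0.2 mg/kg-day, Sfrp4 and Wls were called without exposed replicate 1 (log2 differences -2.12 and -2.32), and Sfrp4 without vehicle replicate 1 (-1.67) or 3 (-1.63). In F3 males at this dose, Sfrp4 and Wif1 were called without vehicle replicate 4 (-1.81 and -1.44), and Porcn, Ascl2 and Wif1 without exposed replicate 3 (1.88, -1.55 and -1.45). The Sertoli cell sum had a median of 359.6 in F2 males at 0.2 mg/kg-day and 694 in F2 vehicle males, and of 198 and 639.7 in the same groups of F3. In F2 males at this dose it was 373.7, 359.6 and 32.8 in replicates 1, 2 and 3, and 32.8 was the lowest of all males. Sfrp4 was 4.91, 1.91 and 0.504 and Wls 3.90, 0.681 and 0.378 in these replicates. The part of the Sertoli cell sum was not tested.

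Gsk3b, the kinase that marks beta-catenin for degradation, varied with library depth in F1. The 11 deep libraries had values from 32.6 to 240.1 (median 107) and the 27 other F1 libraries from 8.88 to 43.3 (median 20.9). All but the deepest library, a vehicle male with 32.6, lay above every other F1 embryo. The deep libraries belonged to the vehicle, 0.2 and 2 mg/kg-day groups of both sexes and came from 6 dams that had no library of the usual depth, so that depth and dam cannot be told apart. In F1 females at 2 mg/kg-day Gsk3b was 0.47 above vehicle on the log2 scale with these libraries and -0.22 without them.

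**Figure D4:**
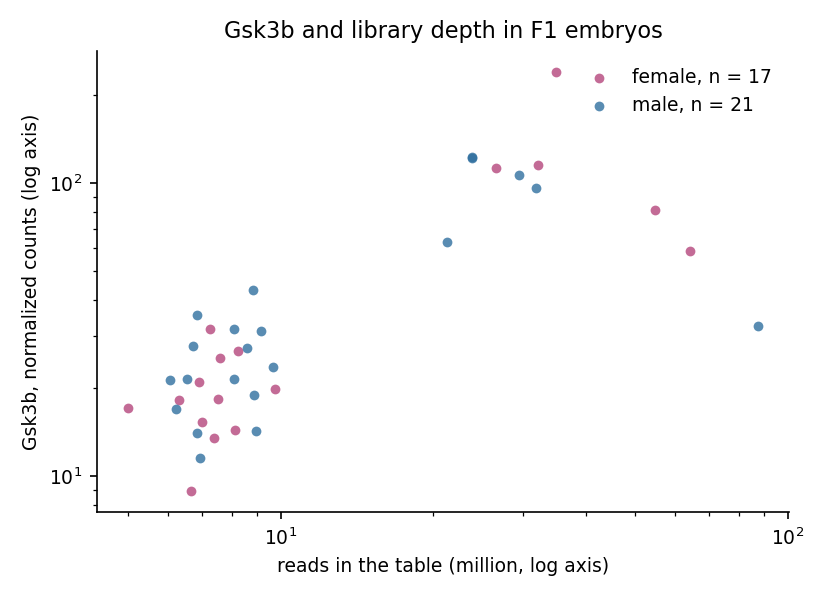
Normalized count of Gsk3b against the reads of each library, both on log axes, for 17 female (magenta) and 21 male (blue) F1 embryos. The 11 deep libraries lie between 32.6 and 240.1, the others between 8.88 and 43.3.

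The genes most like Frat2 over all embryos of both sexes, after the mean of each sex was removed and among 8485 genes of a mean of at least 5, were Klf2 (Pearson r of 0.67), Ntrk2 (0.62), Inadl (0.62), Pcbp1 (0.62) and Mbtps1 (0.61). The embryos share dams, doses and depth classes, so these are descriptions. In the vehicle contrast Pcbp1 was higher in males by 1.29, Ntrk2 by 1.20, Inadl by 1.13 and Mbtps1 by 0.25 on the log2 scale (limma adjusted p = 4.09e-16, 9.88e-06, 3.99e-07 and 0.0132), while Klf2 had 0.03 and was not called (adjusted p = 0.900). Within the females the r with Frat2 was 0.74 for Klf2, and within the males 0.54. Of the 10 genes themselves, Lef1 had the highest r with Frat2 across females, 0.45, and Nkd1 the lowest, -0.50, while across males the r was 0.16 for Lef1 and 0.09 for Nkd1.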

How the data were processed

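RNA-seq of sorted E13.5 germ cells was re-analysed for 48 female and 53 male embryos of 56 dams. The deposited signal values are counts (CPM) that the authors normalized with the TMM method of edgeR, after trimming with Trim Galore and alignment with STAR to mm10 and exon counting with Rsubread, as the submitters' processing notes and the study's methods give it. Versions of these tools are not given there. In 99 embryos 100% of the values lay within 0.05 of a whole multiple of 1 read, so reads were recovered, and the other 2 embryos were left out of the edgeR tests only.

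Comparisons used limma 3.58.1 under R 4.3.3, on log2(value + 0.5), with variances moderated by empirical Bayes along the trend with the mean. Tests were two-sided and covered genes whose mean reached 0.5. Benjamini-Hochberg adjustment ran over all genes of a comparison, with a threshold of 0.05. The vehicle sexes were compared in 1 fit of all embryos in 8 sex-by-dose groups, and doses in 1 fit of 8 groups per generation. Alternatives were other pseudocounts, other filters, upper quartile scaling, edgeR 4.0.16, dams as a block, littermates averaged, a depth term in F1, 24 groups in 1 fit, single generations, F2 with F3, and leaving out each embryo or, chosen after the data were seen, the deep libraries. The fits were tested on simulated data.

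The 10 genes and the lists were chosen with earlier results of these data known. Genes named are the 10, up to 8 per direction with the smallest p among the pathway genes called between the sexes, genes called in a dose comparison, the most abundant of each list, the nearest neighbours of Frat2 and the 5 most like it. Ascl2, Rspo4, Ryk, the genes of F3 male replicate 2 at 0.2 mg/kg-day, and Stra8, Ccnd1 and Pou5f1 beside Frat2 were named after their values were seen. Of the 94 pathway genes, 21 were not in the table and not analysed here. Amer1 and Adgre1 were matched by the synonyms Fam123b and Emr1.

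Litters were read from the embryo names. In 15 vehicle litters with both sexes, brother and sister had a median Pearson r of 0.495 over 2000 genes after group means were removed. The correlation within dams was 0.262 in the sex fit and 0.382, 0.0532 and 0.225 in F1, F2 and F3. Replicates were checked for copies, and none of 184 pairs was one.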

Additional observations from a re-analysis of the deposited data

Results flagged for a closer look

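Within groups of at least 4 embryos, 19 of 140 combinations of gene and group held an embryo far from the others by Dixon's test at 95%, where chance gives about 1 in 20 groups. The highest embryo of its group stood apart for Frat1 in F1 vehicle male replicate 1 (4.16), F2 vehicle male replicate 2 (2.01) and F3 vehicle female replicate 2 (2.00). For Lef1 these were F1 vehicle male replicate 1 (25.1) and F2 vehicle female replicate 6 (15.9), and for Nkd2 F1 male replicate 8 at 2 mg/kg-day (2.17) and F3 female replicate 3 at 2 mg/kg-day (4.23). In F2 vehicle male replicate 5 both Frat2 (6.88) and Axin2 (3.68) were high, and in F3 vehicle male replicate 3 both Ctnnb1 (222) and Gsk3b (37.0). Nkd1 was high in F1 vehicle male replicate 2 (3.62), Tcf7 in F3 female replicate 1 at 0.033 mg/kg-day (16.001) and Sp5 in F2 vehicle female replicate 4 (2.41). Nkd2 was low in F1 vehicle female replicate 5 (0.555).

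Gsk3b was high in replicate 1 of the F1 vehicle females (80.7), F1 vehicle males (121.6), F1 females at 0.2 mg/kg-day (240.1) and F1 males at 0.2 mg/kg-day (122.7), all of them deep libraries.

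In F1 at 0.033 mg/kg-day both females lay above every vehicle female in Frat2, by 0.95 on the log2 scale between the means, and both males lay below every vehicle male. The difference between the sexes was not tested.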

How the results depend on the processing

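For 82 single values there were 804 values under alternatives other than leaving out single embryos. Of these, 786 kept their direction and side of the threshold or, in the untested description of F1 females at 2 mg/kg-day, lay within 1 SD. Between the vehicle sexes, 3 of the 10 genes were called, against 0 with a minimum mean of 5, at which Frat2, Axin2 and Nkd1 were no longer tested, and 5 with dams as a block. Of the other Wnt pathway genes 33 were called, against 17 with a minimum mean of 5 and 16 in F1 alone, where fewer genes or embryos were used. Leaving out single embryos gave from 3 to 4 and from 31 to 36 genes. In the dose comparisons these genes had 0 calls, against 2 with edgeR's likelihood ratio test, and from 0 to 3 when single embryos were left out. The cause was not tested.

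Directions turned for values that had not been called or were not tested. Among them were the sex differences of Frat1 in F3 alone (-0.050), Lef1 in F1 alone (0.15) and Tnks2 in F1 alone (-0.29), and Frat2 in F3 males at 2 mg/kg-day with edgeR's quasi-likelihood (-0.026) and likelihood ratio test (-0.027). When single embryos were left out, the sex difference of Tnks2 lay between -0.030 and 0.077, and the difference of Frat2 between -0.067 and 0.42 in F2 females at 2 mg/kg-day, between -0.23 and 0.24 in F2 males at 0.033 mg/kg-day and between -0.011 and 0.14 in F3 males at 2 mg/kg-day. In the description of F1 females at 2 mg/kg-day beside F1 vehicle females, Frat1 turned from 0.28 to -0.092 and Gsk3b from 0.47 to -0.22 without the deep libraries, and Nkd2 from 0.12 to -0.031 without vehicle replicate 5. The cause was not tested. Where 1 embryo was left in a group, it is assumed to vary like the others. Dose groups of 2 to 4 embryos and medians of 7.0 to 29.5 reads for Frat1 and Frat2 limit what the dose comparisons can show. The sorted cells were bulk samples, so differences in level cannot be divided between cell types and RNA per cell. Littermates shared a dam, and in F1 depth was shared within dams as well. The 3 F1 dose comparisons of females share 1 set of vehicle females, which took part in the choice of the genes.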
